A study of Mus musculus with 2 samples.

Results

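Matrix metalloproteinases (MMPs), the tissue inhibitors that hold them in check (TIMPs) and the collagen cross-linking enzyme lysyl oxidase were followed through the cell types of the liver in metabolic dysfunction-associated steatohepatitis (MASH). The set had 10 genes, taken by symbol from the 32285 genes of the matrix: *Mmp2*, *Mmp12*, *Mmp13*, *Mmp14*, *Mmp19*, *Mmp27*, *Timp1*, *Timp2*, *Timp3* and *Lox*. All 10 were found. The nuclei in which they were counted were chosen by the number of genes detected, by a doublet score and by the UMIs (unique molecular identifiers, each standing for 1 RNA molecule) of marker genes that exclude the 10. Nuclei of stellate cells, macrophages, cholangiocytes, endothelial cells and hepatocytes were told apart by those markers, and the level of a gene is given as CPM, its UMIs scaled to the summed UMIs of all nuclei of that type.

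MMPs are zinc-dependent proteases that cleave collagens, elastin and other proteins of the extracellular matrix, and most are secreted as inactive precursors. TIMPs bind the active site of MMPs and block it, so that the balance of both sets how fast scar matrix is turned over. In the fibrotic liver, stellate cells lay down collagen and make TIMPs, macrophages are a known source of matrix-degrading MMPs, and LOX cross-links collagen fibres into a form that resists cleavage.

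Liver nuclei came from male C57BL6/J mice put at 10 to 12 weeks of age on a diet that drives MASH, with 40% of calories from fat, 20% from fructose and added cholesterol (2%), and kept on it for 5 months. The 2 libraries of single-nucleus RNA-seq differed in genotype: Flox was *Themis* flox/flox, and HKO was *Themis* Alb-Cre, in which the albumin promoter drives Cre in hepatocytes. Liver tissue of several mice was pooled for each library, so animals cannot be told apart and there is 1 library per genotype. No test between genotypes was possible, no p is given, and the 95% intervals printed in parentheses cover counting error only, not mice or library preparation.

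*Themis* itself did not carry the loss named by the label. In hepatocyte nuclei it was at 164 CPM in the Flox-labelled library and 246 CPM in the HKO-labelled library, giving a ratio of 1.501 (1.45 to 1.55), although UMIs counted over the gene do not show whether a floxed exon was present. An exchange of the labels and a transcript that persists without the floxed exon were not tested, and directions below are therefore between libraries as labelled.

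The Flox-labelled library held 9363 barcodes at a median of 6216 UMIs and the HKO-labelled library 10748 at a median of 2227.5 UMIs, and 27 barcode sequences occurred in both. After filtering, 8659 and 9801 nuclei remained, of which 6.34% and 10.0% received no type. The types numbered, with Flox before HKO, 754 and 1107 stellate, 567 and 1409 macrophage, 114 and 468 cholangiocyte, 675 and 1133 endothelial and 5791 and 4415 hepatocyte nuclei. Since a type was cut from a score over markers, some nuclei lay within 0.1 percentage point of the cut, at most 17 in any of these types of the Flox-labelled library and 146 in the other. A cluster took the leading marker type of its own nuclei, so its type is not an independent check. Where a nucleus had both types, they were the same for 99.4% and 99.7% of nuclei. Over all kept nuclei, with no type counted as a type, they were the same for 93.0% and 88.8%. The median nucleus of stellate, cholangiocyte and hepatocyte type had no macrophage marker UMI in either library. For endothelial nuclei the median was 0.0701% and 0.0187% of UMIs on macrophage markers.

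*Mmp13*, *Mmp12* and *Mmp27* lie on the plus strand of chromosome 9 within a cluster of 9 MMP genes that spans 427 kb (GRCm38, 7272514 to 7699585). The 3 genes were the macrophage members of the set, yet they differed from each other between the libraries, so their promoters are shown. Each window runs from 250 bases before to 50 bases after a RefSeq transcript start on GRCm38.p6, in the direction of transcription, and capitals mark letters of the AP-1 motif TGAGTCA or its reverse complement TGACTCA.
Mmp13 (chr9:7272264-7272563, plus strand): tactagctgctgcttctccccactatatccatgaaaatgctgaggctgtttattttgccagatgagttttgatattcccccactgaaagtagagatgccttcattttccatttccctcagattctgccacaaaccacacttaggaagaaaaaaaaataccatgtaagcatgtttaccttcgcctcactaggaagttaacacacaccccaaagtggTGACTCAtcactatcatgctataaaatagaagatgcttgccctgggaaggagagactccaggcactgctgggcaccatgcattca
Mmp12, first start (chr9:7344147-7344446, plus strand): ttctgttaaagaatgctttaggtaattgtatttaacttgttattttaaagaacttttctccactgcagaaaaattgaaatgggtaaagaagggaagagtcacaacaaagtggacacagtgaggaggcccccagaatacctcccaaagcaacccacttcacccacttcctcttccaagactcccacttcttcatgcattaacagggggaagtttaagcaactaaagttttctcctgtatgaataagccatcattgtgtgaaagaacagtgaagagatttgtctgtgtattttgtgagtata
Mmp12, second start (chr9:7347124-7347423, plus strand): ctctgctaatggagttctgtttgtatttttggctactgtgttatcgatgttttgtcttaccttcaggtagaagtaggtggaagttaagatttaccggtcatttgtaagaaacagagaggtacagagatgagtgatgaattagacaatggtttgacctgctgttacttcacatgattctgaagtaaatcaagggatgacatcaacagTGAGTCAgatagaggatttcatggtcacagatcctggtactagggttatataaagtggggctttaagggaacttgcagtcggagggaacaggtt
Mmp27 (chr9:7571146-7571445, plus strand): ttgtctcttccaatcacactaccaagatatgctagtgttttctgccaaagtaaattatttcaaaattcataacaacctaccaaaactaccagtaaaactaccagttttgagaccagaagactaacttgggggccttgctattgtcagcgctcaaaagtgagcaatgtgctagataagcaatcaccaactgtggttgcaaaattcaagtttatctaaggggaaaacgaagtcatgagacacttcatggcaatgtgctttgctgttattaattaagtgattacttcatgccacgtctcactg

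AP-1 is the factor made of FOS and JUN proteins, known for its sites in MMP promoters. A match stood at position 216 of 300 in the *Mmp13* window, on the opposite strand, and at position 207 in the second *Mmp12* window, on the given strand, and the first *Mmp12* window and the *Mmp27* window held none. Of 32851 promoter windows of the same length, 5.20% held this motif on either strand. The letters TATAAA stood at position 235 in *Mmp13* and at position 255, past the start, in the second *Mmp12* window, and 13.6% of all windows held them on either strand. The PEA3 letters AGGAAG, which overlap neither motif here and stood in 35.4% of all windows, occurred 2 times in *Mmp13*, 1 time in the first *Mmp12* window on the opposite strand and not in *Mmp27*. The 4 windows were poor in CpG, with 0 to 3 CpG against a median of 7 over all windows, whereas *Timp2* and *Timp3* had 25 and 24 and *Mmp14* and *Timp1* 10 and 8. A match of letters describes the sequence and says nothing of binding.

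By CPM, each gene had the same leading type in both libraries. *Mmp12*, *Mmp13* and *Mmp27* were highest in macrophages, *Mmp2*, *Timp1*, *Timp2* and *Lox* in stellate cells, *Mmp14* and *Timp3* in endothelial cells and *Mmp19* in hepatocytes. For *Timp2* the intervals of stellate cells and cholangiocytes overlapped in both libraries, as did those of stellate and endothelial cells for *Lox*, and those of hepatocytes and macrophages for *Mmp19* in the HKO-labelled library. *Mmp13* in the Flox-labelled library had only 6 UMIs in macrophages, and its interval began at 1.75 CPM, below the 2.10 and 3.03 CPM that 0 UMIs allow in stellate and endothelial nuclei at 3 counts. In the other cases the leading type stood clear of the next by level. Cholangiocyte nuclei of the Flox-labelled library were few, so that 0 UMIs of *Mmp13*, *Timp1* or *Lox* still allowed up to 13.96 CPM there, which reached into or past the interval of the leading type.

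**Figure D1:**
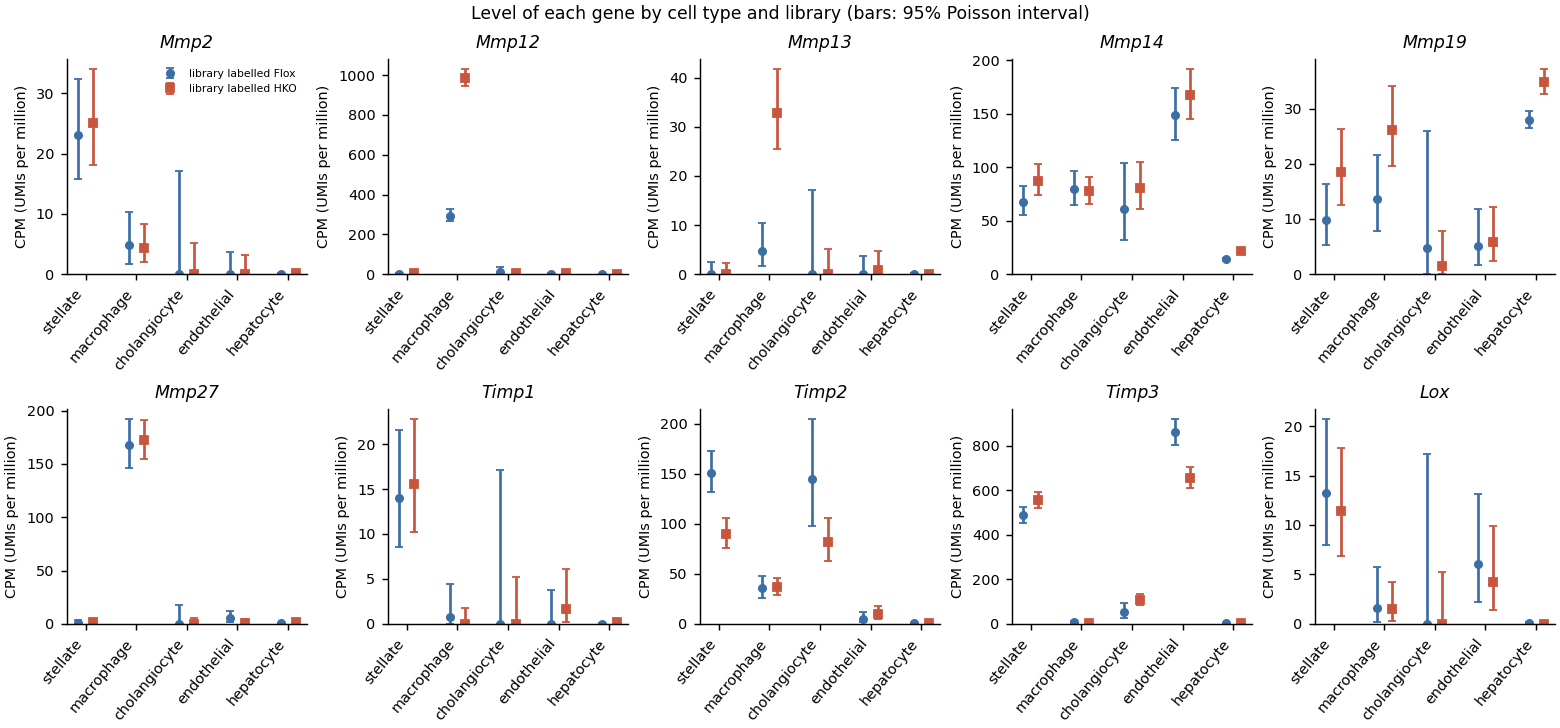
Level of each of the 10 genes in 5 cell types; the vertical axes give CPM and start at 0, circles are the Flox-labelled library, squares the HKO-labelled library, and bars are 95% Poisson intervals. *Mmp12* in macrophages stands at 295 and 985 CPM in the 2 libraries, while *Mmp27* in the same nuclei sits at 168 and 172 CPM, and *Timp2* in stellate cells is lower in the HKO-labelled library, at 89.8 against 151 CPM.

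*Mmp12* encodes macrophage elastase, which degrades elastin. In macrophage nuclei it had 370 UMIs or 295 CPM (266 to 326) in the Flox-labelled library and 2037 UMIs or 985 CPM (943 to 1029) in the HKO-labelled library. The HKO-labelled library was 3.34-fold higher (2.99 to 3.75). Among nuclei thinned to 500 UMIs, at least 1 *Mmp12* UMI was found in 3.88% (2.45 to 5.82) and 15.5% (13.6 to 17.5) of macrophage nuclei, whose median depths had been 2084 and 1358 UMIs. Endothelium should lack this gene, and there the thinned shares were 0 of 675, which allows up to 0.444%, and 0.0883% at median depths of 1348 and 974 UMIs. Macrophage signal thus stood above that background in either library.

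*Mmp12* UMIs were bunched in few nuclei. In the Flox-labelled library, 39 of 567 macrophage nuclei held any, and 2 nuclei with 50 or more UMIs each held 49.2% of the total. In the HKO-labelled library, 338 of 1409 nuclei held any, and the 3 nuclei with 50 or more held 9.52%. The single richest nucleus had 112 UMIs in the first library, or 30.3% of the total, and 91 in the second. Counted over all genes, these nuclei held 7927 and 3224 UMIs, where the median macrophage nucleus held 2084 and 1358. Whether either barcode held more than 1 nucleus was not tested beyond the doublet score. Leaving out the richest nucleus of each library gave 207 CPM (182 to 234) and 943 CPM (902 to 986), giving a ratio of 4.56 (4.002 to 5.21). Intervals that treat UMIs as independent are too narrow for a gene spread in this way.

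**Figure D2:**
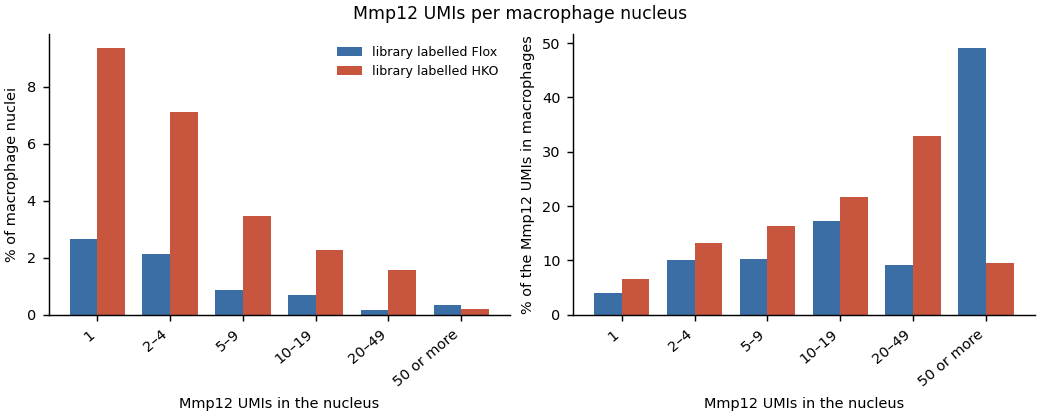
*Mmp12* UMIs per macrophage nucleus; the horizontal axes bin nuclei by their *Mmp12* UMIs (nuclei with none are not drawn), the left axis gives the percentage of macrophage nuclei and the right axis the percentage of all *Mmp12* UMIs in macrophages. Nuclei with 1 UMI make up 2.65% of macrophages in the Flox-labelled library and 9.37% in the HKO-labelled library, and those with 50 or more hold 49.2% and 9.52% of the UMIs.

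Macrophage nuclei were further divided by markers into Kupffer-like nuclei, resembling the resident macrophages of the liver, and lipid-associated macrophage-like (LAM-like) nuclei, resembling the *Trem2*-positive macrophages of fatty tissue. Kupffer-like nuclei were 62.1% of macrophages in the Flox-labelled library and 39.3% in the HKO-labelled library, and LAM-like nuclei 12.2% and 27.4%. The remaining nuclei met neither definition. *Mmp12* itself was not among those markers.

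*Mmp12* was higher in LAM-like than in Kupffer-like nuclei of either library. In LAM-like nuclei it stood at 1296 CPM (184 UMIs) in the Flox-labelled library and 2199 CPM (1274 UMIs) in the HKO-labelled library, and in Kupffer-like nuclei at 35.3 CPM (29 UMIs) and 301 CPM (256 UMIs). LAM-like levels were 36.7-fold (24.7 to 56.4) and 7.30-fold (6.38 to 8.38) those of Kupffer-like nuclei. Between libraries the ratio was 8.54 (5.80 to 13.0) in Kupffer-like and 1.70 (1.45 to 1.99) in LAM-like nuclei. The LAM-like ratio turned on 1 nucleus: the 112 UMIs above were 60.9% of the LAM-like total in the Flox-labelled library, and without the richest nucleus of each library the levels were 537 and 2053 CPM and the ratio 3.82 (3.01 to 4.92). The lead of LAM-like over Kupffer-like nuclei was then 15.2-fold (9.77 to 24.3) in the Flox-labelled library and 6.81-fold (5.95 to 7.83) in the HKO-labelled library. Leaving out the richest Kupffer-like nucleus of each library gave a ratio between libraries of 9.51 (6.06 to 15.7) there. Nuclei of neither kind were at 539 and 795 CPM.

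Kupffer-like nuclei did not carry the same markers in both libraries. Their 6 Kupffer markers summed to 5232 and 4266 CPM and the 7 LAM markers to 466 and 656 CPM. *Marco*, a scavenger receptor, was at 486 and 49.4 CPM and *Cd163*, the haemoglobin receptor, at 477 and 58.9 CPM. *Timd4*, a receptor for dying cells, was at 375 and 88.3 CPM and *Vsig4* at 510 and 357 CPM. *Clec4f*, a lectin of Kupffer cells, was instead at 1388 and 1601 CPM and *Cd5l* at 1997 and 2112 CPM. In Kupffer-like nuclei with no LAM marker UMI, 160 and 241 in number, *Mmp12* was at 17.5 CPM (6 UMIs) and 116 CPM (39 UMIs), giving a ratio of 6.63 (2.79 to 19.2). The part of these marker differences in the *Mmp12* ratio was not tested beyond that subset.

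**Figure D3:**
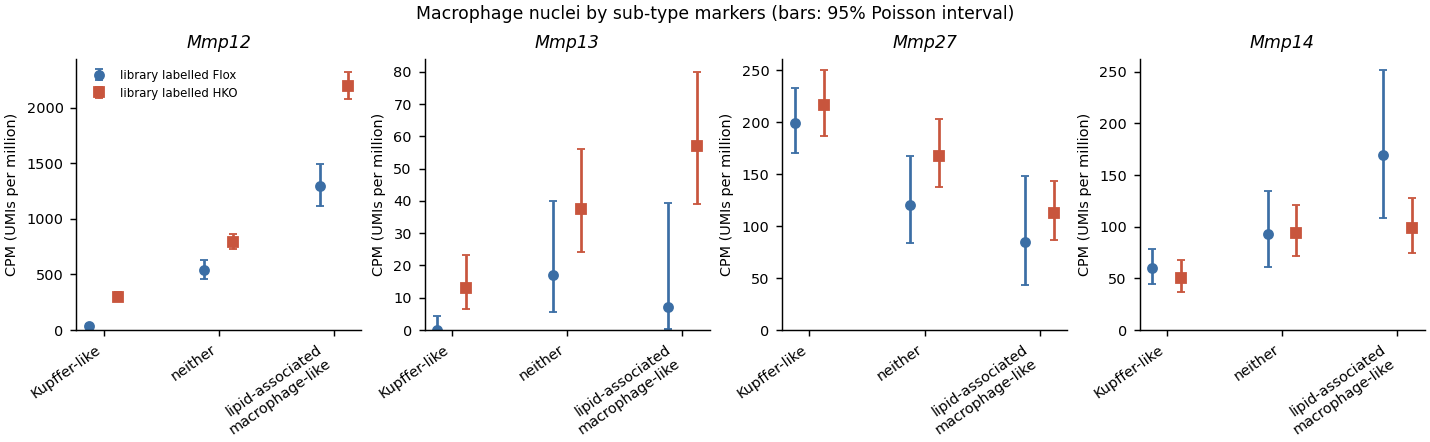
Levels of *Mmp12*, *Mmp13*, *Mmp27* and *Mmp14* in macrophage nuclei divided by sub-type markers; vertical axes give CPM from 0, circles are the Flox-labelled library, squares the HKO-labelled library, and bars are 95% Poisson intervals. *Mmp12* climbs from Kupffer-like to LAM-like nuclei, reaching 1296 and 2199 CPM, and *Mmp27* runs the other way, from 200 and 217 CPM down to 84.6 and 112 CPM.

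*Mmp27*, whose product is a little-studied MMP retained inside the cell, was the second MMP by UMIs in macrophages. It had 211 UMIs or 168 CPM (146 to 192) in the Flox-labelled library and 356 UMIs or 172 CPM (155 to 191) in the HKO-labelled library. No difference was detectable, at a ratio of 1.03 with an interval from 0.862 to 1.22. It was spread thinly over many nuclei, with at most 6 UMIs in any, and 145 of 567 and 264 of 1409 macrophage nuclei held at least 1. After thinning, 7.58% and 8.23% of macrophage nuclei had a UMI, against 0.148% and 0 of 1133 endothelial nuclei, the latter allowing 0.265%.

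By CPM, the order of sub-types was opposite to that of *Mmp12*. *Mmp27* was at 200 CPM in Kupffer-like and 84.6 CPM in LAM-like nuclei of the Flox-labelled library and at 217 and 112 CPM in the HKO-labelled library, so LAM-like nuclei had 0.424 (0.215 to 0.760) and 0.518 (0.384 to 0.691) of the Kupffer-like level. Between libraries neither sub-type differed beyond counting error, at 1.09 (0.875 to 1.35) and 1.33 (0.710 to 2.70). By the share of thinned nuclei with a UMI, the order held in the HKO-labelled library, at 11.8% (9.19 to 14.7) of Kupffer-like and 5.70% (3.61 to 8.50) of LAM-like nuclei. In the Flox-labelled library it did not show, at 7.67% (5.12 to 10.96) and 8.70% (3.26 to 17.97), the latter being 6 of 69 nuclei.

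*Mmp13*, a collagenase that opens fibrillar collagen, was the rarest of the 3. Macrophages held 6 UMIs or 4.78 CPM (1.75 to 10.4) in the Flox-labelled library and 68 UMIs or 32.9 CPM (25.6 to 41.7) in the HKO-labelled library, 6.88-fold higher (3.004 to 19.4). Thinned nuclei held a UMI in 0.176% and 1.35% of macrophages, and in 0 of 675 and 0.0883% of endothelial nuclei, so that the level in the Flox-labelled library was not distinguishable from background while that in the HKO-labelled library was above it. LAM-like nuclei had 1 UMI (7.05 CPM) and 33 UMIs (57.0 CPM), giving a ratio of 8.08 whose interval ran from 1.35 to 329. Kupffer-like nuclei had 0 and 11 UMIs (13.0 CPM), 3.55-fold higher in the HKO-labelled library if 3 counts are set in the other. The exact interval began at 2.43-fold. It treats UMIs as independent, but the 11 UMIs lay in 6 of 553 nuclei, so it is too narrow and 2.43 is no firm bound.

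The remaining genes of that cluster were nearly silent in macrophages. *Mmp8*, the neutrophil collagenase, had 6 UMIs in each library, and *Mmp1b*, *Mmp3*, *Mmp7*, *Mmp10* and *Mmp20* had 0 in each. *Mmp7*, the small epithelial enzyme matrilysin, instead had 52 UMIs in kept nuclei, 46 of them in the 5 types and 43 of those in cholangiocytes.

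*Mmp14*, the membrane-bound MMP that activates pro-MMP2 at the cell surface, was detected in each of the 5 types. Endothelial nuclei were at 148 CPM (125 to 174) in the Flox-labelled library and 167 CPM (145 to 192) in the HKO-labelled library. Stellate nuclei were at 67.8 and 87.4 CPM, macrophages at 79.7 and 77.4 CPM and cholangiocytes at 60.5 and 80.6 CPM. The ratio was 1.13 (0.905 to 1.40), 1.29 (0.991 to 1.69), 0.972 (0.752 to 1.26) and 1.33 (0.720 to 2.65), so none of these 4 types differed beyond counting error. Hepatocytes were lowest, at 14.1 CPM (13.1 to 15.3) and 22.1 CPM (20.3 to 23.9), on 649 and 601 UMIs. Their ratio was 1.56 (1.39 to 1.75), with an interval clear of 1. In hepatocyte nuclei without a macrophage marker UMI this ratio was 1.45 (1.26 to 1.67), which no longer reached 1.5. The stellate and cholangiocyte intervals held 1.56 as well, and whether the types differ in their ratio was not tested.

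Within macrophages *Mmp14* also had an order. LAM-like nuclei exceeded Kupffer-like nuclei 2.84-fold (1.66 to 4.71) and 1.94-fold (1.29 to 2.96), from 169 against 59.6 CPM and from 98.4 against 50.6 CPM. LAM-like nuclei of the HKO-labelled library were 1.72-fold lower (1.02 to 2.82) than those of the Flox-labelled library, on 57 and 24 UMIs. In endothelium, vascular-like nuclei had 78.7 and 92.3 CPM, on 6 and 11 UMIs, and sinusoidal-like nuclei 151 and 183 CPM. The ratio of vascular-like to sinusoidal-like nuclei was 0.521 (0.187 to 1.17), an interval that held no difference, and 0.505 (0.247 to 0.930).

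*Mmp19*, a secreted MMP that acts on basement membrane proteins, was highest by CPM in hepatocytes, and other types held UMIs of it as well. In the HKO-labelled library the hepatocyte and macrophage intervals overlapped. Hepatocytes held 1282 UMIs or 27.9 CPM (26.4 to 29.5) in the Flox-labelled library and 949 UMIs or 34.8 CPM (32.6 to 37.1) in the HKO-labelled library, 1.25-fold higher (1.15 to 1.36). These were 95.7% and 88.1% of its UMIs, where hepatocytes held 89.3% and 78.7% of the UMIs of all genes. Macrophages had 13.5 CPM (17 UMIs) and 26.1 CPM (54 UMIs), giving a ratio of 1.93 (1.10 to 3.55). Stellate nuclei had 9.78 CPM (14 UMIs) and 18.6 CPM (31 UMIs), giving a ratio of 1.90 with an interval from 0.980 to 3.86 that held no difference. *Tmem198b* overlaps the end of *Mmp19* on the opposite strand and had 1572 UMIs; 3′ reads of this chemistry keep their strand.

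*Mmp2*, the gelatinase that cuts basement membrane collagen, was a stellate gene at low level. Stellate nuclei had 23.1 CPM (33 UMIs) in the Flox-labelled library and 25.2 CPM (42 UMIs) in the HKO-labelled library, giving a ratio of 1.09 (0.675 to 1.78). Macrophages were at 4.78 and 4.35 CPM, and cholangiocyte and endothelial nuclei held 0 UMIs in both libraries.

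TIMPs divided by type as the MMPs did. *Timp1*, the inhibitor induced in activated stellate cells, had 13.97 CPM (20 UMIs) and 15.6 CPM (26 UMIs) in stellate nuclei, giving a ratio of 1.11 (0.598 to 2.11). In thinned stellate nuclei 0.531% and 0.813% held a UMI, against 0 of 675 and 0.0883% of endothelial nuclei. No other of the 5 types held more than 4 of its UMIs in a library.

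*Timp2*, which both inhibits MMPs and takes part in the activation of pro-MMP2 by MMP14, was lower in the HKO-labelled library in the 2 types where it was highest. Stellate nuclei had 216 UMIs or 151 CPM (131 to 172) and 150 UMIs or 89.8 CPM (76.0 to 105), 1.68-fold lower (1.36 to 2.08). Cholangiocyte nuclei had 31 UMIs or 144 CPM (98.0 to 205) and 58 UMIs or 82.0 CPM (62.3 to 106), 1.76-fold lower (1.10 to 2.77). The stellate intervals did not overlap between libraries, and the cholangiocyte intervals did. Macrophages were level at 35.8 and 36.3 CPM, giving a ratio of 1.01 (0.690 to 1.499). Marker UMIs of both types were lower in the same library: the median stellate nucleus had 1.996% and 1.48% of its UMIs on stellate markers, and the median cholangiocyte nucleus 1.64% and 1.01% on its own. Their part in the *Timp2* values was not tested. In nuclei led by stellate rather than fibroblast markers the *Timp2* level was 1.75-fold lower (1.40 to 2.18). *Cep295nl* lies within *Timp2* on the same strand and had 81 UMIs, so reads over shared bases could be lost as ambiguous.

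*Timp3*, the inhibitor bound to the extracellular matrix, had the most UMIs of the 10 genes in the 5 types together, 3644 over both libraries. Endothelial nuclei had 853 UMIs or 861 CPM (804 to 921) in the Flox-labelled library and 778 UMIs or 657 CPM (611 to 704) in the HKO-labelled library, 1.31-fold lower (1.19 to 1.45). Stellate nuclei had 488 CPM (452 to 525) and 555 CPM (519 to 592), 1.14-fold higher (1.03 to 1.26). Cholangiocyte nuclei had 51.2 CPM (11 UMIs) and 107 CPM (76 UMIs), 2.10-fold higher (1.11 to 4.38). The 3 types thus pointed in opposite directions, though by under 1.5-fold in endothelial and stellate nuclei.

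Endothelial nuclei were divided by markers into those resembling the lining of the sinusoids and those of larger vessels. Sinusoidal-like nuclei had 803 and 528 CPM, 1.52-fold lower (1.34 to 1.72) in the HKO-labelled library, while vascular-like nuclei had 1442 and 1208 CPM, where an interval from 0.649 to 1.08 around the ratio of 0.838 held no difference. Whether the 2 ratios differ was not tested. Vascular-like nuclei exceeded sinusoidal-like nuclei 1.80-fold (1.45 to 2.20) and 2.29-fold (1.88 to 2.77). After thinning, 30.4% and 23.7% of endothelial nuclei held a *Timp3* UMI, against 0.529% and 0.284% of macrophages, a type that should lack it. Stellate marker UMIs, summed over the list in nuclei typed by cluster, made up 868 and 641 CPM of endothelial and 140 and 198 CPM of cholangiocyte nuclei; their part in the *Timp3* values was not tested. *Timp3* lies inside *Syn3*, which runs on the opposite strand and had 1215 UMIs.

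*Lox* had 13.3 CPM (7.99 to 20.7) and 11.4 CPM (6.85 to 17.8) in stellate nuclei, on 19 UMIs in each library, giving a ratio of 0.857 (0.430 to 1.71). Endothelial nuclei had 6.06 and 4.22 CPM, on 6 and 5 UMIs, of which 4 and 3 were in vascular-like nuclei. In stellate nuclei any ratio from 0.430 to 1.71 remained within counting error at this depth.

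**Figure D4:**
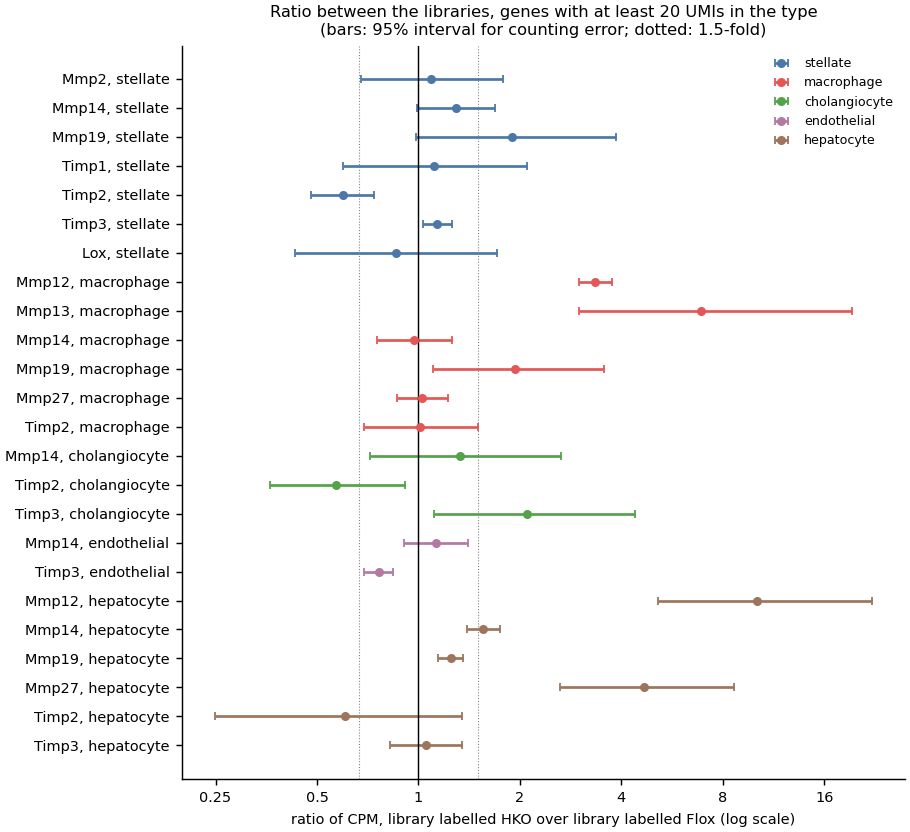
Ratio of CPM, library labelled HKO over library labelled Flox, for the 24 pairs of gene and type with at least 20 UMIs; the horizontal axis is logarithmic, bars are 95% intervals for counting error, the solid line marks 1 and dotted lines 1.5-fold either way. *Mmp12* and *Mmp13* in macrophages lie to the right at 3.34 and 6.88, and *Timp2* in stellate nuclei lies to the left at 0.595.

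Hepatocyte nuclei held few UMIs of the macrophage genes, and these were more frequent in the HKO-labelled library. *Mmp12* had 10 UMIs (0.218 CPM) and 60 UMIs (2.20 CPM), giving a ratio of 10.1 (5.13 to 22.1), and *Mmp27* 17 UMIs (0.371 CPM) and 47 UMIs (1.73 CPM), giving a ratio of 4.66 (2.62 to 8.65). Each *Mmp12* UMI was the only one of its nucleus. With predicted doublets kept, *Mmp12* had 12 and 243 UMIs in hepatocytes, giving a ratio of 33.3 (18.7 to 65.4). After thinning, a *Mmp12* UMI was found in 0 of 5791 and 0.159% (0.0638 to 0.326) of hepatocyte nuclei. Endothelium had 0 and 0.0883%, the latter with a wide interval from 0.00224% to 0.491%. A *Mmp27* UMI was found in 0 of 5791 and 0.0906% of hepatocyte nuclei. Endothelium had 0.148% and 0 of 1133, the latter allowing 0.265%. Neither gene in hepatocytes was thus distinguishable from endothelium by these shares. In nuclei typed by cluster, *Mmp12* in hepatocytes was 0.0770% and 0.264% of its macrophage level, and the 15 macrophage markers summed there to 0.715% and 0.951% of theirs. Requiring no macrophage marker UMI left ratios of 13.6 (5.36 to 44.2) for *Mmp12* and 3.49 (1.73 to 7.40) for *Mmp27*. *Timp2* had 25 and 9 UMIs in hepatocytes, giving a ratio of 0.606 (0.249 to 1.34).

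Counted by type, members past 1.5-fold were few, and they are read beside the share of all genes with at least 20 UMIs that passed the same fold. In macrophages 3 of 6 genes measured were higher in the HKO-labelled library (*Mmp12*, *Mmp13*, *Mmp19*), where 7.61% of 10201 genes were, and 0 were lower, where 15% were. *Mmp13* (6 and 68 UMIs) and *Mmp19* (17 and 54 UMIs) reached 20 UMIs only with the HKO-labelled library, where they were higher. *Mmp13* in the Flox-labelled library was not distinguishable from background. The median log2 ratio was 0.47 for the 6 and -0.099 for all genes. In hepatocytes 3 of 6 were higher (*Mmp12*, *Mmp14*, *Mmp27*) against 12.5% of 14602 genes and 1 was lower (*Timp2*) against 13.2%, with medians of 0.46 and -0.012. Of these hepatocyte genes, *Mmp12* and *Mmp27* (17 and 47 UMIs) were not distinguishable from endothelium after thinning. *Mmp14* was at 1.45 in nuclei without macrophage marker UMIs. In stellate nuclei 1 of 7 was higher (*Mmp19*) against 8.95% of 10220 genes and 1 lower (*Timp2*) against 14.8%, with medians of 0.15 and -0.055, so both shares were near those of all genes. In cholangiocytes 1 of 3 was higher (*Timp3*) against 17% of 6964 genes and 1 lower (*Timp2*) against 16.1%, with medians of 0.41 and -0.001. In endothelial nuclei 0 of 2 were past the fold in either direction, against 8.6% higher and 12.6% lower of 9370 genes. Medians there were -0.11 and -0.054. The limit of 20 UMIs is over both libraries, so a gene can pass it through the library where it is higher. That held for *Mmp12* and *Mmp27* in hepatocytes, *Mmp19* in stellate nuclei and *Timp3* in cholangiocytes. It also held, through the Flox-labelled library, for *Timp2* in hepatocytes. The shares of all genes carry the same limit.

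Over all nuclei together, where each type counts by its share of the UMIs, the picture changed. Macrophages were 6.55% of kept nuclei in the Flox-labelled library and 14.4% in the HKO-labelled library, and hepatocytes 66.9% and 45.0%. By UMIs, which also depend on depth, macrophages were 2.44% and 5.97% and hepatocytes 89.3% and 78.7%. *Mmp12* then stood at 8.62 and 67.0 CPM, 7.77-fold higher (7.01 to 8.62), and *Mmp27*, level within macrophages, at 5.37 and 12.7 CPM, 2.37-fold higher (2.03 to 2.77). *Timp2* pointed the other way: it was lower within stellate nuclei and cholangiocytes but 1.35-fold higher (1.16 to 1.56) over all nuclei, at 7.73 and 10.4 CPM. *Timp3* was likewise 1.55-fold higher (1.45 to 1.64) over all nuclei, at 39.3 and 60.7 CPM, though lower within endothelium. Yield of nuclei and composition of the tissue cannot be told apart in 1 library per genotype.

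**Figure D5:**
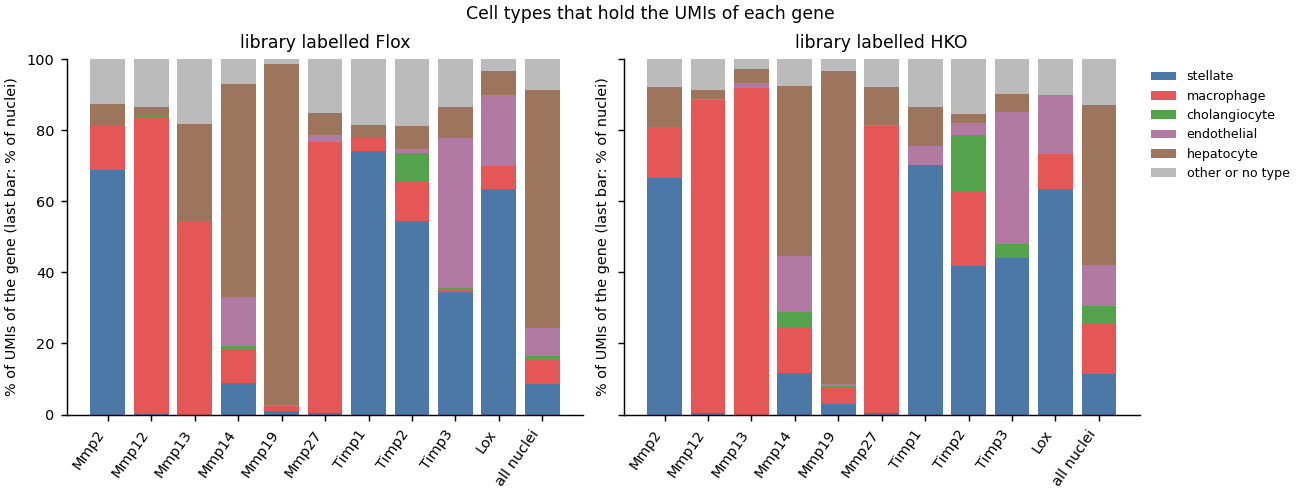
Share of the UMIs of each gene held by each cell type, in the Flox-labelled library (left) and the HKO-labelled library (right); the vertical axis is a percentage of the UMIs of the gene in kept nuclei, and the last bar gives the percentage of nuclei by type for comparison. Macrophages hold 83.5% and 87.8% of *Mmp12*, hepatocytes 95.7% and 88.1% of *Mmp19* (and 89.3% and 78.7% of the UMIs of all genes), and stellate nuclei 54.4% and 41.7% of *Timp2*.

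Genes whose level over the 5 types and 2 libraries most resembled a member were sought among 12534 genes by Pearson's r over 10 points, which share libraries and depth, so r is given as a description. *Mmp12* was closest to *Gm21188*, *Trem2*, a lipid receptor of macrophages, and *Adam8*, a membrane protease, at 0.991, 0.990 and 0.990. *Mmp27* was closest to *Ifi209*, *Nlrp1b* and *Acod1*, which makes itaconate, at 0.999 each. *Mmp2* ran with *Ggt5* (0.995), *Timp2* with *Nck2* (0.985) and *Timp3* with *Osmr*, the oncostatin M receptor (0.995). *Mmp14* and *Mmp19*, both with UMIs in several types, were closest to *Dennd6a* (0.985) and *Idh3g* (0.928). Among members, *Mmp12* and *Mmp27* had the highest r, 0.965, and *Mmp14* and *Mmp19* the lowest, -0.666.

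The wider protease system was taken from 6 lists and read by the same fold and beside the same shares of all genes. Over the lists together, 4 of 15 genes measured in macrophages were higher in the HKO-labelled library and 1 lower, against 7.61% and 15% of all genes. In stellate nuclei 3 of 35 were higher and 7 lower, against 8.95% and 14.8%, near the shares of all genes. In endothelial nuclei 6 of 25 were higher and 2 lower, against 8.6% and 12.6%. In cholangiocytes 0 of 14 were higher and 6 lower, against 17% and 16.1%. In hepatocytes 10 of 29 were higher and 7 lower, against 12.5% and 13.2%. Of 17 other MMPs, *Mmp15*, a membrane-bound relative of *Mmp14*, had the most UMIs, 1259 in the 5 types. Hepatocytes held 1187 of these, at 14.6 and 18.98 CPM, giving a ratio of 1.30 (1.16 to 1.46). They also held 89.3% and 78.7% of the UMIs of all genes. Cholangiocytes held 54, a larger part than the 0.418% and 2.04% of all UMIs that they held. *Mmp9*, the gelatinase of myeloid cells, had only 14 UMIs in the 5 types. *Mmp11* in stellate nuclei and *Mmp15* in cholangiocytes were past the fold downwards, and no other MMP with 20 UMIs passed in any type.

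Of the other inhibitors, *Mug1* and *Pzp* had nearly all their UMIs in hepatocytes. *Mug1* and *Pzp*, broad plasma protease inhibitors of the macroglobulin family, were at 3083 and 1706 CPM and at 1212 and 886 CPM in hepatocytes, giving ratios of 0.553 (0.548 to 0.559) and 0.731 (0.720 to 0.742). *Reck*, a membrane-anchored MMP inhibitor, was at 2.35 and 0.771 CPM in hepatocytes, giving a ratio of 0.327 (0.195 to 0.526). It was not chiefly a hepatocyte gene, with 121 of its 260 UMIs in stellate nuclei and 129 in hepatocytes. Hepatocytes held 89.3% and 78.7% of the UMIs of all genes. *A2m* had 20 of its 21 UMIs in endothelial nuclei. Of the 3 measured in hepatocytes 2 were past the fold downwards, where 13.2% of all genes were, and 0 upwards, where 12.5% were.

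Of the relatives of *Lox*, all 4 had at least 20 UMIs in stellate nuclei and 2 of them were lower, where 14.8% of all genes were. *Loxl2*, which also cross-links collagen, was at 179 and 102 CPM, giving a ratio of 0.569 (0.466 to 0.694), and *Loxl4* at 18.2 and 8.98 CPM, giving a ratio of 0.495 (0.244 to 0.969). *Loxl1* and *Loxl3* had ratios of 1.29 (0.793 to 2.11) and 1.13 (0.803 to 1.58).

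The plasminogen system, whose end product plasmin activates several MMPs, had 3 genes past the fold downwards in hepatocytes, where 13.2% of all genes were. *Plg*, plasminogen itself, was at 480 and 269 CPM, giving a ratio of 0.562 (0.547 to 0.577). *Serpinf2*, the plasmin inhibitor, and *Serpine2*, a thrombin and protease inhibitor, had ratios of 0.552 (0.527 to 0.577) and 0.242 (0.220 to 0.266).

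Among 14 ADAM and ADAMTS proteases, which shed surface proteins and cut proteoglycans, 13 were measured in stellate nuclei and 2 were higher (*Adamts4*, *Adamts14*) and 1 lower (*Adamts1*), about what the 8.95% and 14.8% of all genes give. In hepatocytes *Adamts1* was instead higher, at 22.6 and 35.02 CPM, giving a ratio of 1.55 (1.42 to 1.69), 1 of 4 upwards among 9 measured, against 12.5% of all genes. *Adam8* was the only one of 5 measured in macrophages past the fold, and it was higher, where 7.61% of all genes were.

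The matrix proteins on which these enzymes act showed no shared direction in stellate nuclei, where 0 of 9 were higher and 2 were lower (*Col4a1*, *Col4a2*, chains of basement membrane collagen), against 8.95% and 14.8% of all genes, at a median log2 ratio of -0.016. In hepatocytes 5 of 9 were past the fold upwards, against 12.5% of all genes, at a median of 0.44 against -0.012 over all genes. *Col3a1*, a fibrillar collagen and a stellate marker, was there at 1.74 and 2.72 CPM, while the 15 stellate markers summed to 405 and 268 CPM in hepatocytes typed by cluster, and their part in these values was not tested.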

How the data were processed

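Nuclei were prepared from frozen pooled liver, sorted and sequenced with the 10x 3′ chemistry. The authors deposited, for each library, raw UMI counts per gene and barcode, not normalized; per the labels, reads were counted with Cell Ranger 8.0.1 on GRCm38, and the study's methods exclude intronic reads, so unspliced nuclear RNA is largely uncounted. Barcodes with at least 300 genes were kept and the highest-scoring doublets (Scrublet in scanpy 1.11.5, 30 components, 0.8% per 1000 barcodes) were removed, 701 and 920 in number.

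A nucleus received a type when markers of that type made up at least 0.3% of its UMIs, with at least 3 UMIs from 2 markers and 2 times the next type, and under 0.4% from hepatocyte markers. Hepatocytes needed at least 0.4%, with each other type under 0.15%. Sub-types needed 2 UMIs and 2 times the other sub-type. These limits were settled with the data in view, and the members and lists were chosen with earlier results of these data known. Names stand for a resemblance.

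UMIs were summed per type and library into CPM. Exact Poisson, conditional binomial and Clopper-Pearson intervals (95%) cover counting error only. Log2 ratios carry a pseudocount of 1 CPM, and ratios and intervals carry none. A ratio between libraries is given as past the fold at 1.5 among genes with at least 20 UMIs over both libraries in the type, and a group at 0 was set to 3 counts. Shares of nuclei were taken after thinning each to 500 UMIs. The named genes were the 10 members, the 3 genes most like each of the 7 members with at least 100 UMIs (log2 of CPM plus 10, genes with at least 200 UMIs), and up to 4 genes of each pathway list with the most UMIs in its leading type; other genes named were chosen after their values were seen. The fold rule and the intervals were tested on simulated Poisson counts, the model that the intervals assume. That simulation holds no bunching of UMIs in few nuclei, so it does not cover genes such as *Mmp12*.

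Alternatives were types from clusters, doublets kept, at least 500 genes, the mean over nuclei, TMM factors (edgeR 4.0.16, R 4.3.3), median-of-ratios factors, a pseudocount of 10 CPM, a larger lead between types, other limits on UMIs and fold, and other thinning depths. Promoter windows are from RefSeq and positions from GENCODE on GRCm38; 7 of the 10 genes had a window, and *Mmp2*, *Mmp19* and *Lox* had none. A result on 1 gene of the lists is not reported here.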

Additional observations from a re-analysis of the deposited data

Results flagged for a closer look

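*Timp3* was singled out because its ratio between the libraries pointed in opposite directions in different types. It was 1.14 in stellate nuclei and 2.10 in cholangiocytes but 0.763 in endothelial nuclei, each with an interval clear of 1. With 1 library per genotype the difference between the types was not tested.

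*Mmp12* also appeared in nuclei with plasma cell markers, which enter no comparison above. The 21 such nuclei of the library labelled HKO held 21 UMIs, or 535 CPM (331 to 817), and the 11 of the library labelled Flox held none. The UMIs came from 2 nuclei, 1 of which had 20 of them. The 15 macrophage markers summed to 611 and 687 CPM in those nuclei, with 6 and 9 of the 15 detected, against 9876 and 8482 CPM in macrophages. A second MMP, *Mmp19*, had 9 UMIs there, all in 1 nucleus. Their part in the value was not tested.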

How the results depend on the processing

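The 24 ratios were recomputed in 8 ways, giving 192 values, of which 186 stayed within the counting interval and 6 moved out of it; none whose interval was clear of 1 changed direction. In all 313 recomputed values 283 stayed and 30 moved. The log2 ratio of *Mmp12* in macrophages, 1.74, became 2.13 as a mean over nuclei and 2.18 without the richest nucleus of each library, an alternative chosen after seeing the data, as were the subsets without a LAM or macrophage marker UMI. That of *Timp3* in endothelial nuclei, -0.39, became -0.22 with types from clusters; the cause was not tested. That of *Mmp12* in hepatocytes, 1.395, became 2.855 with doublets kept and 0.256 with a pseudocount of 10 CPM, which shrinks the ratios of low genes. TMM and median-of-ratios factors shifted the library size (log2, HKO over Flox) by -0.117 and -0.127 in macrophages and by -0.097 and -0.134 in cholangiocytes, which raises their ratios by as much. Of the 24 ratios, 7 changed sign in some setting, and each of them had an interval that held 1.

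Counts of members past the fold are small and differed from those above by at most 1 gene in any setting. At 2-fold, 2 were higher in macrophages and 2 in hepatocytes, and 0 were higher and 0 lower in stellate nuclei, 0 lower in cholangiocytes and 0 lower in hepatocytes. With at least 10 UMIs, 4 were higher in hepatocytes, 2 in stellate and 1 in endothelial nuclei and 1 lower in macrophages; with at least 50, 0 were higher in stellate nuclei and 0 lower in hepatocytes, since fewer genes were measured. With doublets kept, 2 were higher in stellate nuclei and 0 lower in hepatocytes, and with types from clusters 0 were lower in hepatocytes. No paired analysis was possible because the result comes from no test and each genotype has 1 library; for that reason no library could be left out.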
